A study of Mus musculus with 2 samples.

Results

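Hand1, Hand2, Foxf1, Prdm6, Pitx1, Msx1, Msx2, Tbx20, Kdr and Gata5 are 10 genes associated with extraembryonic and early lateral mesoderm. They were taken by symbol from the 32285 genes of the count tables, and all 10 were found. Their counts were followed in 2 single-cell RNA sequencing libraries of mouse embryonic stem cells of the R1 strain, grown for 72 hours in N2B27, a serum-free medium. The library called LB came from cells on gelatin given LIF, which keeps stem cells dividing undifferentiated, and BMP4, a growth factor that activates SMAD1 and SMAD5. The library called LBPXRS came from cells on fibronectin given LIF and BMP4 together with PD0325901 (an inhibitor of MEK), Xav939 (an inhibitor of tankyrase, which lowers WNT signalling), SB431542 (an inhibitor of the NODAL and activin receptors) and a compound the labels give as Resorcyclic lactone. The series title names the FGF, TGF and WNT pathways as limits on a BMP4-driven totipotent state. Medium and substrate differ between the libraries and cannot be told apart.

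Extraembryonic mesoderm leaves the posterior primitive streak under BMP signalling and builds the allantois, the amnion lining and the yolk sac mesoderm, where the first blood and vessels form. HAND1 and HAND2 are basic helix-loop-helix factors that bind E-boxes with partners such as TCF3, TCF4 and TCF12. FOXF1 is a forkhead factor needed for the allantois and the yolk sac vessels, MSX1 and MSX2 are homeodomain factors induced by BMP, and KDR is the VEGF receptor that marks vascular and blood progenitors.

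After filtering, LB held 1783 cells with a median of 25418 unique molecular identifiers (UMIs, 1 per captured RNA molecule) per cell, and LBPXRS held 2705 cells with a median of 19058. Summed UMIs were 45490517 and 51832444, and levels are given as CPM, the UMIs of a gene per 1000000 UMIs of a library. With 1 library per condition there is no replicate and no test, so the intervals below (95%, exact) cover counting error only. The libraries shared 8 barcodes among their kept cells. Among kept cells, 32 in LB and 168 in LBPXRS had under 0.5% mitochondrial UMIs. Over the 7661 genes at 10 CPM or more in either library, the LBPXRS to LB ratio had a median of -0.17 on the log2 scale.

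As a set the members were much lower in LBPXRS than in LB. Together they gave 7914 UMIs in LB and 259 in LBPXRS, a CPM ratio of 34.8. Hand1 alone gave 3824 of these LB UMIs and 0 in LBPXRS, so it weighs heavily on this ratio. The members were chosen with earlier results of these data known, so the lower level of the set is a description and no independent finding. At least 1 member was found in 697 LB cells and in 234 LBPXRS cells. Only 4 members, Hand1, Prdm6, Msx1 and Msx2, reached 10 CPM, and all 4 were at least 4-fold lower in LBPXRS by size alone, a class that held 2.88% of the 7661 genes, against 2.04% at least 4-fold higher. They reached 10 CPM only through LB, so a difference was bound to appear among them. Without the cells under 0.5% mitochondrial UMIs this count was again 4, with 223 of 7658 genes at least 4-fold lower. Over all 10 members the median log2 ratio was -2.33, on the scale of log2(CPM + 1). The interval of the ratio lay above 1 for 9 members, and Gata5, with 1 UMI in each library, was the exception.

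**Figure D1:**
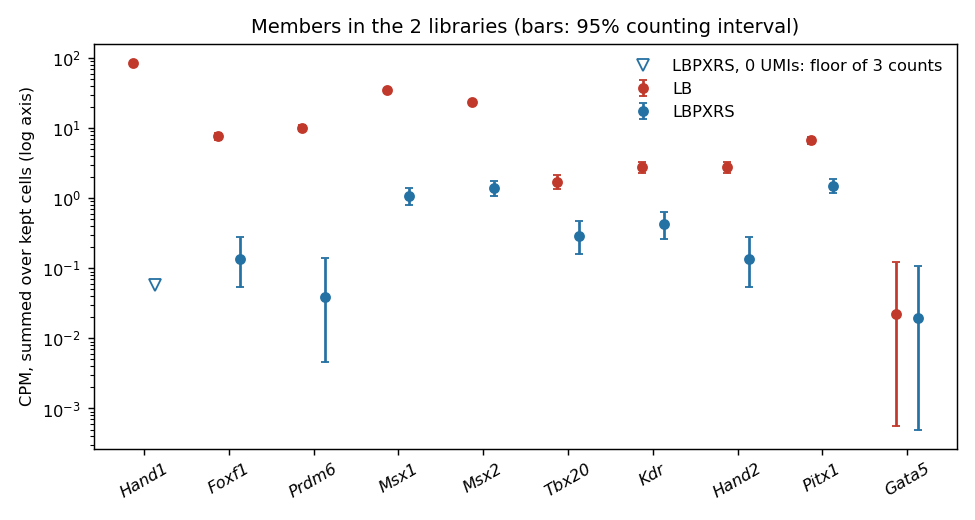
CPM of the 10 members summed over the kept cells of each library, on a log axis, with bars for the 95% counting interval and an open triangle for a gene with 0 UMIs, drawn at the floor of 3 counts. The LB and LBPXRS intervals are apart for every member but Gata5, and Hand1 goes from 84.1 CPM in LB to 0 UMIs in LBPXRS.

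Hand1 (ENSMUSG00000037335, chr11:57828705-57832818, minus strand, GRCm38), which is needed for yolk sac vessels, heart and trophoblast giant cells, gave 3824 UMIs in LB and 0 in LBPXRS. Its level was 84.1 CPM (81.4 to 86.8) in LB, at least 1452-fold higher than in LBPXRS when that library is set to the floor of 3 counts over all its cells, and the exact lower limit of the ratio was 1181. With each cell thinned to 5000 UMIs, 13.9% of LB cells (12.3 to 15.6, 241 of 1733) had a Hand1 UMI. Unthinned, it was 409 of 1783 cells, or 22.9%. None of 2621 thinned LBPXRS cells had one, so the share of such cells with a Hand1 UMI is limited to 0.114% at 3 counts of the total (exact upper limit 0.141%), which is no limit on the share of cells that express it. The 409 cells were unequal. Of these, 122 had 1 UMI, 165 had 2 to 9 and 122 had 10 or more, with a highest count of 102, and 41 cells held 45.4% of all Hand1 UMIs.

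Foxf1 (ENSMUSG00000042812, chr8:121084386-121088144, plus strand) gave 347 UMIs in 123 LB cells and 7 UMIs in 7 LBPXRS cells. These are 7.63 CPM (6.85 to 8.47) and 0.135 CPM (0.0543 to 0.278), a ratio of 56.5 (27.1 to 141.5). Prdm6 (ENSMUSG00000069378, chr18:53463583-53575907, plus strand), a PR-domain protein that represses transcription in smooth muscle and vascular precursors, gave 461 UMIs in 200 LB cells and 2 UMIs in 2 LBPXRS cells. Its levels were 10.1 CPM (9.23 to 11.1) and 0.0386 CPM, a ratio of 263 with a wide interval of 72.3 to 2175. Both genes were thus detected in LBPXRS only as single UMIs. Counts per LB cell were lower than those of Hand1, with 60 of 123 Foxf1 cells and 86 of 200 Prdm6 cells at 1 UMI.

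Msx1 (ENSMUSG00000048450, chr5:37820485-37824583, minus strand) gave 1587 UMIs in 414 LB cells and 55 UMIs in 54 LBPXRS cells. Its CPM was 34.9 (33.2 to 36.6) in LB and 1.06 (0.799 to 1.38) in LBPXRS, 32.9 times lower (25.1 to 43.8). Msx2 (ENSMUSG00000021469, chr13:53466884-53473074, minus strand) gave 1060 UMIs in 335 LB cells and 72 UMIs in 59 LBPXRS cells. Its CPM was 23.3 (21.9 to 24.7) and 1.39 (1.09 to 1.75), a ratio of 16.8 (13.2 to 21.6). Both homeodomain genes were low in LBPXRS but present above the floor. An LBPXRS cell held up to 4 Msx2 UMIs, more than any other member reached there.

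Pitx1 (ENSMUSG00000021506, chr13:55825051-55836192, minus strand), a homeodomain factor of the hindlimb and posterior lateral mesoderm, differed less between the libraries, with a ratio of 4.44 (3.45 to 5.77) whose interval overlaps those of Tbx20 and Kdr. It gave 304 UMIs in 69 LB cells and 78 UMIs in 76 LBPXRS cells, 6.68 CPM (5.95 to 7.48) against 1.50 (1.19 to 1.88). At equal thinned depth the share of cells with a Pitx1 UMI was 2.42% (1.75 to 3.26) in LB against 0.954% (0.618 to 1.40) in LBPXRS. An LB cell with Pitx1 had a median of 4 UMIs, whereas 74 of the 76 LBPXRS cells had 1. Gm47071 overlaps Pitx1 on the other strand and Hand2os1 overlaps Hand2. These were counted as genes of their own, with 8 and 48 UMIs in LB. The use of strand in counting is not given, and whether any of their reads were counted for the members was not tested. Hand2 (ENSMUSG00000038193, chr8:57320983-57324633, plus strand), a relative of Hand1 that acts in heart, limb and posterior mesoderm, gave 126 UMIs in 56 LB cells and 7 in LBPXRS, a ratio of 20.5 (9.67 to 52.1). Kdr (ENSMUSG00000062960, chr5:75932827-75978458, minus strand) also gave 126 UMIs, in 59 LB cells, and 22 in LBPXRS, a ratio of 6.53 (4.13 to 10.8). Tbx20 (ENSMUSG00000031965, chr9:24718138-24774303, minus strand), a T-box factor of the heart and lateral mesoderm, gave 78 UMIs in 63 LB cells and 15 in LBPXRS, a ratio of 5.92 (3.38 to 11.1). Of those 63 cells, 77.8% had 1 UMI. Gata5 (ENSMUSG00000015627, chr2:180325133-180334699, minus strand), a zinc finger factor of heart and endoderm, gave 1 UMI in each library and is not followed further.

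Hand1 lies on chromosome 11, and Foxf1 and Hand2 lie on chromosome 8. Genes of those chromosomes were lower in LBPXRS as a body, with median log2 ratios of -0.63 over 707 genes and -0.61 over 455 genes, against -0.17 over all genes. The log2 ratios of the members there were -6.41 for Hand1, -2.93 for Foxf1 and -1.73 for Hand2. A pseudocount of 0.1 CPM in place of 1 gave -9.72, -5.04 and -3.61. The part of a chromosome-wide shift in these values was not tested.

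Promoter sequences are shown for members counted in the same LB cells, to set the letters at their start sites side by side. RefSeq promoters (GRCm38.p6) were found for 6 of the 10 members, Hand2, Msx1, Msx2, Tbx20, Kdr and Gata5. The 250 bases before the start are shown for the 4 of these with the most LB UMIs, Msx1 (chr5:37824586-37824835, minus strand), Msx2 (chr13:53472781-53473030, minus strand), Kdr (chr5:75978456-75978705, minus strand) and Hand2 (chr8:57320733-57320982, plus strand). Starts are those of RefSeq, and for Msx2 that start lies inside the GENCODE gene given above, so its window does too. Capitals mark matches on either strand to the E-box CANNTG, the GC-rich SMAD sequence GGCGCC, the homeodomain sequences TAATTA or TAATTG and the GATA sequences AGATAA or TGATAA.
Msx1: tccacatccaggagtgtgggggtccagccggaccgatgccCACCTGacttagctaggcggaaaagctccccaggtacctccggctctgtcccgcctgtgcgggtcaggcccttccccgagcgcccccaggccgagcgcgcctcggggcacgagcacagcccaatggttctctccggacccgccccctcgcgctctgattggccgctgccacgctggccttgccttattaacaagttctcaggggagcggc
Msx2: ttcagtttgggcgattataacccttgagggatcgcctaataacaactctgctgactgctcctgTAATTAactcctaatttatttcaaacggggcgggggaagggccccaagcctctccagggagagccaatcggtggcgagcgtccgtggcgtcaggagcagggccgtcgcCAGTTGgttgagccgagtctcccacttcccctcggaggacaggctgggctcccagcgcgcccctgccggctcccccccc
Kdr: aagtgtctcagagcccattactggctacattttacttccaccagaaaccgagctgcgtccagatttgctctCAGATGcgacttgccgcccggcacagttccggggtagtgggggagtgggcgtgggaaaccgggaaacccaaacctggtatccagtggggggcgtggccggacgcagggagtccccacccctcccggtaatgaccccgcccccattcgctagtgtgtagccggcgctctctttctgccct
Hand2: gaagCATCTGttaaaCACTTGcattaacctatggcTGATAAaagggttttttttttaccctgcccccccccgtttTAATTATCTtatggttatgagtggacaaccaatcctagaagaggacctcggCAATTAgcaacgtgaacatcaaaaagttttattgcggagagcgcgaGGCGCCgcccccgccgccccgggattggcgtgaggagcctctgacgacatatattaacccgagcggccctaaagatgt

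The Hand2 promoter held 7 matches of 4 kinds, Msx2 held 2 of 2 kinds, and Msx1 and Kdr each held 1 E-box. In Hand2 the E-boxes began at -246 and -235 from the start site and the GGCGCC at -78, and the homeodomain match at -175 overlapped the GATA match at -172. In Msx2 a homeodomain match began at -187 and an E-box at -79. The E-box began at -210 in Msx1 and at -179 in Kdr. Gata5 held 1 E-box, and Tbx20 held none of these sequences. The forkhead sequence TGTTTAC, searched on both strands like the others, was in none of the 6. Over 32851 promoters of the same length, 66.2% held an E-box, 9.59% GGCGCC, 11.3% a homeodomain sequence, 16.6% a GATA sequence and 3.17% TGTTTAC. GC content was 49.2% in Hand2, 61.6% in Msx2 and in Kdr, and 68.0% in Msx1. A match describes the letters of these windows and not a bound site.

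The members were then placed in LB cells that had been clustered without them. Cluster 2, of 355 cells, was called later or extraembryonic mesoderm-like from 14 raised markers outside the members, among them Bmp4, Gata4, Gata6, Pdgfra, Twist1, Col1a1, Acta2 and Tagln. It also had 7 raised markers of the primitive streak, and Mesp1 and Cyp26a1 were among its 10 leading genes by fold. Cluster 4, of 222 cells, was called primitive streak-like from 5 raised markers, T, Mixl1, Fgf8, Evx1 and Lhx1, fewer of that class than in cluster 2. Its leading genes also held the interferon genes Isg15 and Rtp4. Cluster 6, of 78 cells, was trophoblast-like with 6 raised markers including Gata3, Tfap2a and Esx1, its leading genes also holding Cxcl10, Ankrd1 and Tagln, and cluster 1, of 570 cells, was naive pluripotent-like. Clusters 3, 5 and 7 met no naming rule. Fgf5, Dnmt3b and Pou3f1 were among the leading genes of cluster 3.

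Cluster 2 held most UMIs of every member counted more than once. It had 80.4% of Hand1 UMIs, 95.7% of Foxf1, 98.9% of Prdm6, 96.4% of Pitx1, 95.2% of both Hand2 and Kdr, 75.6% of Msx2, 71.8% of Tbx20 and 56.5% of Msx1, while holding 19.9% of LB cells. Hand1 was 357 CPM (344 to 369) in cluster 2, 237 (217 to 258) in the trophoblast-like cluster and 33.4 (28.5 to 39.0) in the streak-like cluster, and the intervals of these 3 were apart. Clusters 7 and 3 followed with 6.73 (2.18 to 15.7) and 4.28 CPM (2.98 to 5.95), then cluster 1 with 2.17 (1.51 to 3.02) and cluster 5 with 0.836 (0.228 to 2.14), each overlapping its neighbour in that order. After thinning, a Hand1 UMI was found in 50.9% of cells of cluster 2, in 44.9% of cluster 6 and in 12.0% of cluster 4, but in 0.529% of naive-like cells, whose median depth of 28096 UMIs was above the 23947 of cluster 2. In the 34 naive-like cells with Hand1, the count was 1 or 2 UMIs. Whether these are free RNA or expression was not tested.

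**Figure D2:**
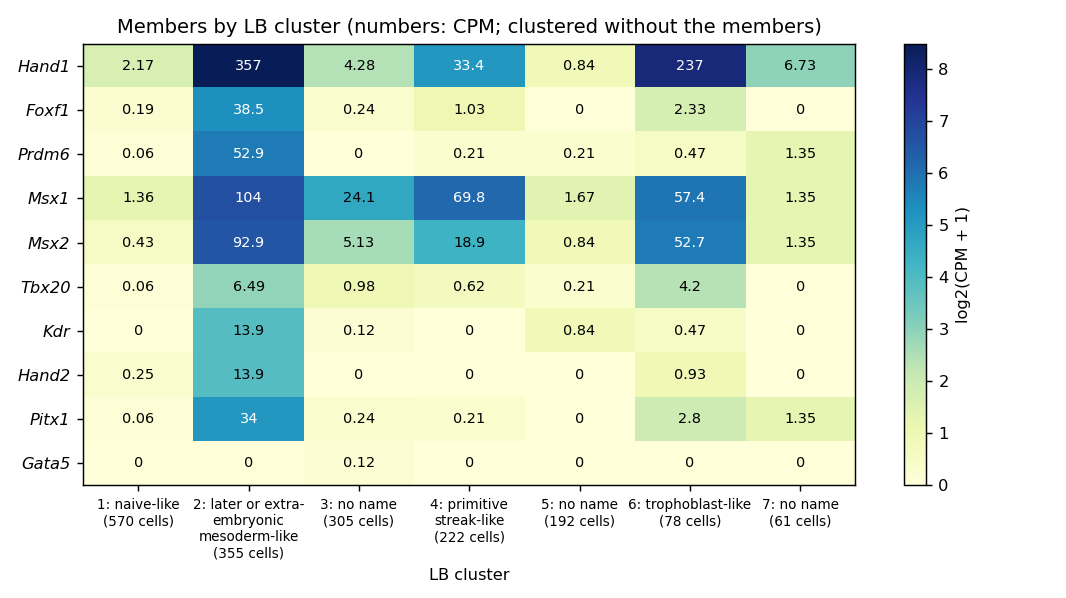
CPM of the 10 members in the 7 LB clusters, with color for log2(CPM + 1) and the CPM printed in each box. Foxf1, Prdm6, Kdr, Hand2 and Pitx1 are between 13.9 and 52.9 CPM in cluster 2 and at most 2.80 elsewhere, while Hand1 is 357 CPM there and 237 in cluster 6, and Msx1 is 104, 69.8 and 57.4 in clusters 2, 4 and 6.

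The members separated by how far they reached beyond cluster 2. Foxf1 was 38.5 CPM (34.5 to 42.9) in cluster 2, 2.33 (0.758 to 5.45) in cluster 6 and 1.03 (0.333 to 2.39) in cluster 4. Prdm6 was 52.9 CPM (48.1 to 58.0) in cluster 2 and had 1 UMI in each of clusters 4 and 6. Msx1 and Msx2 were broad instead. Msx1 was 104 CPM (97.2 to 110.9) in cluster 2, 69.8 (62.5 to 77.6) in cluster 4, 57.4 (47.7 to 68.5) in cluster 6 and 24.1 (20.8 to 27.7) in cluster 3. Msx2 was 92.9 CPM (86.6 to 99.5) in cluster 2, 52.7 (43.5 to 63.4) in cluster 6, 18.9 (15.2 to 23.1) in cluster 4 and 5.13 (3.70 to 6.94) in cluster 3. The order of clusters 4 and 6 thus differed between these related genes, with overlapping intervals for Msx1 and separate ones for Msx2. Tbx20 was 6.49 CPM (4.91 to 8.43) in cluster 2 and 4.20 (1.92 to 7.98) in cluster 6, with intervals that overlap.

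Hand1-positive cells held Foxf1 and Prdm6 more often in cluster 2 than in clusters 4 and 6. In cluster 2, 102 of 245 Hand1 cells also had Foxf1 (41.6%, 35.4 to 48.1) and 155 had Prdm6 (63.3%, 56.9 to 69.3). Cells of cluster 2 without Hand1 also held these genes, Foxf1 in 9.09% and Prdm6 in 36.4%. In cluster 6, 2 of 49 Hand1 cells had Foxf1 (4.08%, 0.498 to 14.0) and 1 had Prdm6, although the median Hand1 count was 6 UMIs in both clusters and the highest single count, 102, was in cluster 6. For every 100 Hand1 UMIs of a cluster there were 10.8 Foxf1 UMIs (9.61 to 12.1) in cluster 2 and 0.986 (0.319 to 2.32) in cluster 6, and 14.8 Prdm6 UMIs (13.4 to 16.4) against 0.197 (0.00498 to 1.10). Msx1 and Msx2 kept pace with Hand1 in both, at 29.1 (27.0 to 31.4) and 24.3 (19.8 to 29.6) UMIs for Msx1 and 26.0 (24.1 to 28.2) and 22.3 (18.0 to 27.4) for Msx2. In the streak-like cluster 4, 3 of 53 Hand1 cells had Foxf1 (5.66%, 1.18 to 15.7) and 1 had Prdm6, with 3.07 Foxf1 UMIs (0.983 to 7.31) and 0.613 Prdm6 UMIs (0.0154 to 3.47) per 100 of Hand1. It had 209 Msx1 UMIs (173 to 253) and 56.4 Msx2 UMIs (43.2 to 73.3) per 100 of Hand1, more than in either other cluster. These are sums over all cells of a cluster, and Hand1 cells alone showed no such excess. Msx1 was in 62.3% of Hand1 cells (47.9 to 75.2) in cluster 4, 63.7% in cluster 2 and 49.0% in cluster 6. Msx2 was in 50.9%, 63.7% and 67.3%. Hand1 with Msx1 and Msx2, but with few Foxf1 and Prdm6 UMIs, was thus found in both the trophoblast-like and the streak-like cells. The trophoblast-like cluster had 4 raised mesoderm markers, and their part in its member counts was not tested.

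**Figure D3:**
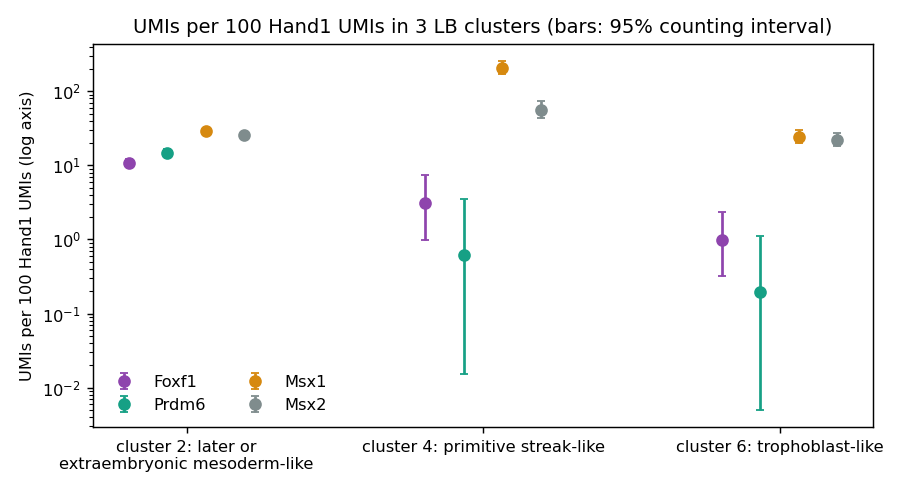
UMIs of Foxf1, Prdm6, Msx1 and Msx2 per 100 Hand1 UMIs in LB clusters 2, 4 and 6, on a log axis, with bars for the 95% counting interval. Foxf1 is 10.8 in cluster 2 and 0.986 in cluster 6, while Msx1 is 29.1 and 24.3 there and 209 in cluster 4.

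Co-expression was described over all 1783 LB cells with Pearson r of ln(1 + UMIs per 10000). The cells share 1 library, differ in depth and belong to several clusters, so r is a description without a p, and weak values in sparse counts are no finding. Hand1 and Foxf1 had r = 0.54. Of 409 cells with Hand1, 108 had Foxf1 (26.4%, 22.2 to 31.0), against 15 of 1374 cells without Hand1 (1.09%, 0.612 to 1.79). With thinned cells the share among Hand1 cells was 13.3% (32 of 241). Seen from Foxf1, 108 of its 123 cells had Hand1. The value of r was 0.33 after thinning and 0.44 within cluster 2, where it was 0.24 after thinning. Inside the cluster, unthinned, 91.1% of Foxf1 cells (84.2 to 95.6) and 58.8% of the other cells had Hand1, shares that also move with depth.

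Among 12799 genes found in at least 2% of LB cells, 1.28% had r of at least 0.3 with Hand1, and 4 of the 8 other members in that set did. These were Msx2 with 0.55, Foxf1 with 0.54, Prdm6 with 0.53 and Msx1 with 0.40, at places 5, 8, 10 and 54 of the ranking. In thinned cells r with Hand1 was 0.33 for Msx2, 0.33 for Foxf1, 0.35 for Prdm6 and 0.28 for Msx1, the last below 0.3. Tbx20 had 0.29, Hand2 and Pitx1 0.16 each, and Kdr 0.075, at place 3174. The median was 0.34 over these 8 members and 0.019 over all genes. The members were chosen with earlier results of these data known, so these values describe the list and are no independent support for it. Membership of cluster 2 is shared by all of these genes. Within it, the median r over the 36 pairs without Gata5 was 0.098, against 0.20 over all LB cells, and only 2 pairs had an r of at least 0.3, Hand1 with Foxf1 and Hand1 with Prdm6 (0.30). In thinned cells of cluster 2 both fell below 0.3, to 0.24 each.

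**Figure D4:**
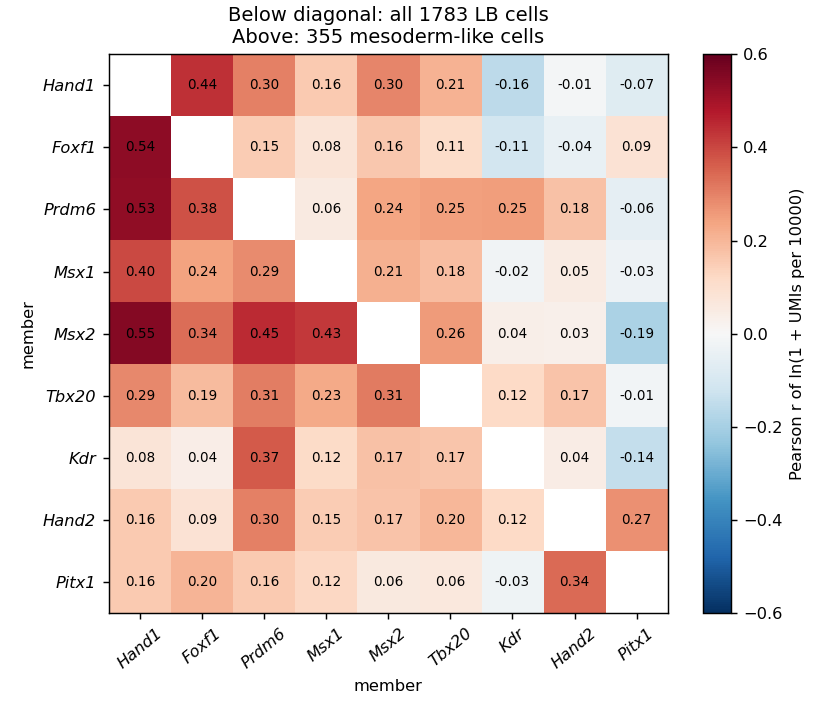
Pearson r of each pair of members without Gata5, below the diagonal over 1783 LB cells and above it over the 355 mesoderm-like cells. The median is 0.20 below and 0.098 above the diagonal. Above it, Pitx1 is below 0 with Kdr (-0.14) and Msx2 (-0.19), and Kdr is below 0 with Hand1 (-0.16) and Foxf1 (-0.11).

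Cells with many members were mesoderm-like and low in pluripotency genes. Of 174 LB cells with at least 4 members, 160 (92.0%) were in cluster 2, as were all 39 cells with at least 6. The most members in a cell were 7, in 13 cells. Pou5f1, a core pluripotency factor, was 860 CPM in the 1086 cells with no member, 576.5 with 2 members, 235 with 4 and 39.1 in the 13 cells with 7. Dppa5a, a gene of naive cells, went from 3557 to 92.2 CPM over the same ends. Median depth was 25413.5 UMIs in the cells without a member and 28921 in those with 7. In LBPXRS 225 cells had 1 member, 9 had 2, and none had more.

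Inside cluster 2, Pitx1 and Kdr were found in different cells. Pitx1 was in 61 and Kdr in 56 of the 355 cells, and none had both, where the product of their shares gives 9.62. Over the whole LB library, 69 and 59 cells had 1 of the genes and again none had both, where their shares give 2.28. In the cluster r was -0.14, and -0.087 in thinned cells. Other pairs there were also below their shares. Hand1 and Kdr were together in 32 cells where 38.6 were given (r = -0.16, thinned -0.056). Foxf1 and Kdr were together in 13 where 17.7 were given (r = -0.11), and Pitx1 and Msx2 in 19 where 35.2 were given (r = -0.19). Hand2 went with Pitx1, with 20 cells holding both where 8.76 were given by the shares (r = 0.27). Prdm6 went with Kdr, in 44 cells where 30.8 were given (r = 0.25). In thinned cells of the cluster r was 0.22 for Hand2 with Pitx1 and 0.19 for Prdm6 with Kdr. The members of cluster 2 were therefore not all raised in the same cells.

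Sub-clusters of cluster 2, again made without the members, placed these pairs. Sub-cluster 1, of 87 cells, had Tagln, Cryab, Pou3f1, Cnn1, Plaur, Tnfrsf12a, Col1a1, Arl4c, Krt18 and Acta2 as its leading genes, with smooth muscle genes (Tagln, Cnn1, Acta2), a collagen and an epithelial keratin among them. It held 57.8% of the cluster's Hand1 UMIs and 58.1% of its Foxf1 UMIs. Hand1 was 650 CPM (620 to 681) there and between 179 and 287 in the other 4, and Foxf1 was 70.6 (61.0 to 81.3) against 11.4 to 36.7. The median depth of sub-cluster 1, 30784 UMIs, was the highest of the 5, and with thinned cells 74.7% had Hand1 (64.3 to 83.4), against 37.0% to 50.8% in the others. Sub-cluster 4, of 68 cells, was led by 2610528A11Rik and posterior Hox genes such as Hoxa10 and Hoxc10. It held 232 of the 293 Pitx1 UMIs and 49 of the 120 Hand2 UMIs, with Pitx1 at 151 CPM (133 to 172), and it had no Kdr UMI. Its Msx2 level, 26.1 CPM (18.7 to 35.6), was low beside the 139 (125 to 154) of sub-cluster 1.

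Sub-cluster 5, of 54 cells, was led by Samd5, Asb4 and Vstm2b and also had Etv2, the factor that starts blood and vessel fate, with Fgf10 and Gata4 among its leading genes. It held 80 of the 120 Kdr UMIs, at 58.4 CPM (46.3 to 72.6), and no Pitx1 UMI. Prdm6 was 86.8 CPM (71.9 to 104) and Msx2 139 (120 to 161) there, while Hand1, at 179 (157 to 203), was close to the 188 (167 to 212) of sub-cluster 2. Hand2 was in both Kdr-rich and Pitx1-rich cells, at 24.1 CPM (16.6 to 33.8) in sub-cluster 5 and 32.0 (23.7 to 42.3) in sub-cluster 4, and had 0 of 78 cells in sub-cluster 2. Sub-cluster 2, with Mesp1, Mesp2 and Dll3 among its leading genes, had the shallowest cells, at 18194 UMIs. Sub-cluster 3, with T, Lhx1 and Lefty1 among its leading genes, had the highest Msx1 level, 140 CPM (121.9 to 160.6). Its interval overlaps those of sub-cluster 5 (122, 104 to 142) and, narrowly, sub-cluster 4 (105, 89.5 to 122.6).

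**Figure D5:**
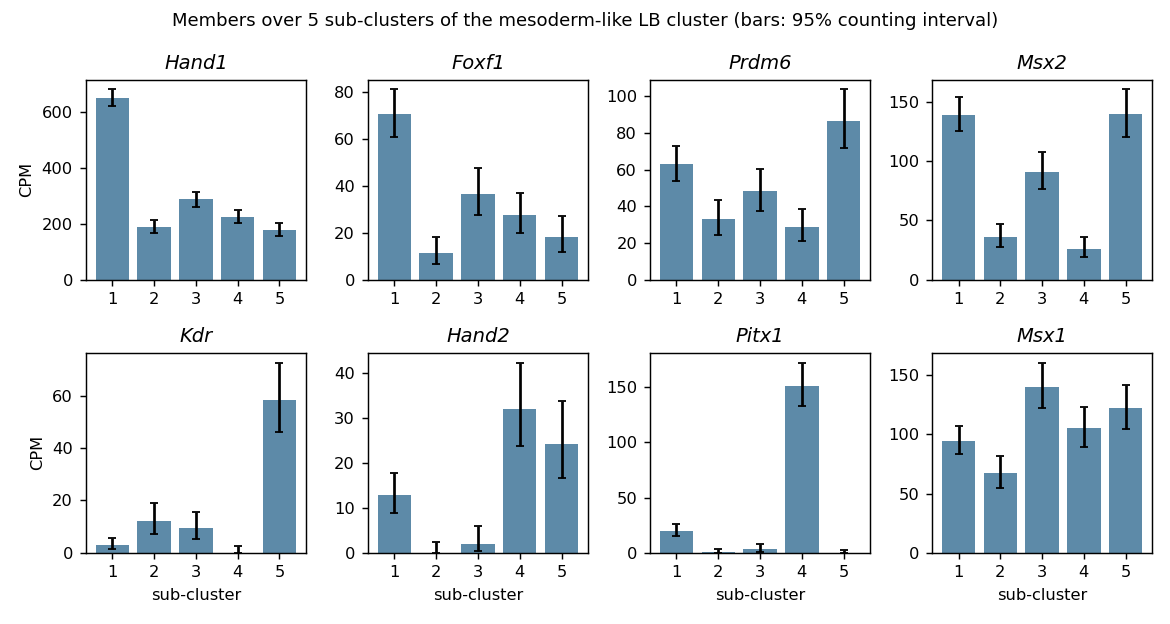
CPM of members in the 5 sub-clusters of the mesoderm-like LB cluster, 1 panel per gene, with bars for the 95% counting interval and axes from 0. Hand1 and Foxf1 are highest in sub-cluster 1 (650 and 70.6 CPM), Pitx1 in sub-cluster 4 (151) and Kdr in sub-cluster 5 (58.4).

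The genes outside the members that were most like each member over all LB cells, among genes found in at least 2% of them, are given for the 5 members found in at least 100 cells. Another member was higher in some rankings, as Hand1 was for Foxf1 (0.54) and Msx2 was for Msx1 (0.43). For Hand1 these were H19 (r = 0.58), Tpm1 (0.58), Cald1 (0.56), Bambi (0.56) and Dok4 (0.54), with 2 actin-binding genes and a BMP pseudoreceptor among them. For Foxf1 they were Ppic (0.41), Bmp4 (0.41), Col1a1 (0.38), Igfbp4 (0.37) and Serpinh1 (0.37). For Prdm6 they were Ppic (0.61), Pmp22 (0.53), Hmga2 (0.52), Nrp1 (0.51) and Igfbp4 (0.48). For Msx2 they were Pmp22 (0.52), Krt8 (0.48), Ppic (0.47), Tpm1 (0.45) and Serpinh1 (0.45), and for Msx1 Limd2 (0.40), Cdx2 (0.40), Peg3 (0.38), Mdk (0.38) and Gnas (0.37). Ppic, a cyclophilin, was among the 5 of Foxf1, Prdm6 and Msx2, and Serpinh1, a collagen chaperone, among those of Foxf1 and Msx2, while Msx1 shared none of its 5 with these. The rarer members were looked at after their values were seen, with the same exclusion of members and of genes in under 2% of cells. Pitx1 was most like Hoxb7 (0.51), Hoxb6 (0.48) and Hoxa7 (0.45), Hand2 like Meis1 (0.35) and Nrp1 (0.34), and Kdr like Nrp1 (0.40), a VEGF co-receptor, and Fgf10 (0.39). In thinned cells these values were lower, at 0.15 for Pitx1 with Hoxb7, 0.35 with Hoxb6 and 0.21 with Hoxa7, at 0.088 for Hand2 with Meis1 and 0.13 with Nrp1, and at 0.14 for Kdr with Nrp1 and 0.20 with Fgf10. The order also moved with depth. Etv2 had 0.36 with Kdr and 0.25 after thinning, and Isl1 had 0.31 with Hand2 and 0.25 after thinning. For the leading genes above, thinned r was 0.48 for Hand1 with H19, 0.21 for Foxf1 with Ppic, 0.31 for Prdm6 with Ppic, 0.19 for Prdm6 with Pmp22, 0.30 for Msx2 with Pmp22 and 0.25 for Msx1 with Limd2. Within cluster 2, Msx1 had r of 0.052 with Limd2, -0.0045 with Mdk and -0.11 with Gnas, while Cdx2 had 0.22.

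The lower member counts of LBPXRS were set beside those of the 570 naive pluripotent-like LB cells, a comparison added after the data were seen. None of the 10 members reached 10 CPM in either. Msx1 was 1.06 CPM in LBPXRS and 1.36 in naive-like LB cells, a ratio of 0.778 (0.467 to 1.34). Foxf1 and Hand2, with 7 UMIs each in LBPXRS and 3 and 4 in naive-like cells, had ratios of 0.727 (0.166 to 4.35) and 0.545 (0.139 to 2.54). Hand1 had 35 UMIs (2.17 CPM) in naive-like cells and 0 in LBPXRS. Pitx1 was higher in LBPXRS, with 78 UMIs against 1, a ratio of 24.3 (4.23 to 971.5), and so was Msx2, with 72 against 7, a ratio of 3.20 (1.48 to 8.25). Kdr had 22 UMIs against 0 and was at least 2.28-fold higher with the naive-like cells at the floor of 3 counts, the exact lower limit of the ratio being 1.71. Within LBPXRS, 40 of the 72 Msx2 UMIs were in the 842 cells of a cluster led by Krt8 and Krt18, at 2.78 CPM (1.99 to 3.79), and 6 of the 7 Foxf1 UMIs were in a cluster of 606 cells led by Gata2. Pitx1 was spread, at 2.09, 1.12, 1.36 and 1.43 CPM over the 4 largest clusters, with overlapping intervals.

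Other genes of these pathways were counted from 4 lists, by the same size and minimum, under which 2.88% of all genes were lower. Of 14 BMP ligands, receptors and targets 9 passed, and Bmp4 (45.9 to 0.405 CPM), Id1 (175 to 17.8) and Id3 (147 to 6.33) were lower. The Id genes are direct targets of SMAD1 and SMAD5, and a further one, Id2 (57.4 and 33.4), was below the 4-fold size. Bmp7 was 14.6 and 14.7 CPM, Smad7 was 38.1 and 31.1, and the median was -0.73 over the 9 and -0.70 over all 14. Bmp4 and Id3 reached 10 CPM only through LB. Among partners and relatives of the members, Gata2 was at least 4-fold higher (1.69 to 26.8 CPM), and the E-box partners Tcf3 (89.9 and 89.3), Tcf4 (23.4 and 15.7) and Tcf12 (12.0 and 9.03) were below the 4-fold size. Of 17 genes listed for extraembryonic mesoderm, a mixed list of matrix, contractile, imprinted and other genes, 10 passed and 7 were lower, with a median of -3.29 over the 10 and -2.02 over all 17. Of the 7, 6 reached 10 CPM only through LB, Vim being the exception. These were Acta2 (10.7 to 0.0193), Tagln (42.8 to 0.617), Vim (151.9 to 19.8), Pmp22 (34.7 to 0.270), Dlk1 (13.8 to 0.772), Igf2 (13.5 to 0.193) and H19 (148.7 to 1.47). Acta2 and Tagln are contractile genes and Vim a filament gene, while Pmp22 is a membrane protein gene, and Dlk1, Igf2 and the noncoding RNA H19 are imprinted. The matrix gene Fn1 (139 and 108 CPM) and the actin-binding gene Cald1 (82.1 and 79.5) were below the 4-fold size. Of 13 VEGF and blood genes 3 passed and none was past 4-fold in either direction. Vegfa was 4.84 CPM in LB and 16.1 in LBPXRS, Pecam1 16.5 and 34.0, and Etv2 13.8 and 7.27, with a median log2 ratio of 1.00 over these 3. Over all 13, low genes included, the median was -0.35, so its sign depends on the CPM minimum.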

How the data were processed

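The deposited files hold UMI counts per gene and cell barcode for 1 LB and 1 LBPXRS library (10x Genomics 3′ version 2 chemistry, per the labels' protocols), made by the authors with Cell Ranger 4.0.0 on mm10, per the submitters' processing notes. The annotation and the use of strand in counting are not given in the sources used here. Barcodes with under 1000 genes or over 10% mitochondrial UMIs were left out (225 of 2008 and 406 of 3111). Scrublet in scanpy 1.11.5 marked 12 LB cells (0.673%) and 14 LBPXRS cells (0.518%), which were kept, and it may have missed doublets. UMIs were summed to CPM, and log2((CPM in LBPXRS + 1)/(CPM in LB + 1)) was used with a size of at least 2 at 10 CPM or more in either library, the pseudocount understating the change of low genes. Intervals are exact Poisson, conditional binomial for ratios and Clopper-Pearson, at 95%. PCR and differences between cultures are not covered. For shares, cells were thinned to 5000 UMIs, leaving out 50 and 84 cells. LB cells were clustered without the 10 members (2000 variable genes, 30 components, 15 neighbours, Leiden resolution 0.5, the last also for sub-clusters). A cluster took a class name from at least 3 raised markers (5 CPM, log2 ratio of 1) unless the median of the class was under 1, classes tied, or its leading genes (20 CPM) or depth went against it. Gene places are from GENCODE M21 (GRCm38), which held 32158 of the gene identifiers (99.6%). Named genes are the members, the list genes past the threshold or set beside them, the 5 most correlated genes of members found in at least 100 LB cells, and leading genes. Members, lists and markers were chosen with earlier results of these data known. The scripts were tested on simulated data. TMM factors were from edgeR 4.0.16, used for scaling only. Alternatives were other scaling, pseudocount, CPM minimum, thinning, cell filters, doublets left out, the correlation measure and the clustering. One result on a gene of the lists is not reported here.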

Additional observations from a re-analysis of the deposited data

Results flagged for a closer look

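The barcodes left out by the cell filter still held member UMIs in LB. In the 225 LB barcodes left out, Hand1 was 45.9 CPM (31.8 to 64.2, 34 UMIs), Msx1 was 14.9 CPM (11 UMIs) and Msx2 was 29.7 CPM (22 UMIs). In the 406 LBPXRS barcodes left out, Hand1 and Msx1 had 0 UMIs and Msx2 had 2 (2.75 CPM). Kdr was 13.5 CPM (6.48 to 24.9, 10 UMIs) in the LB barcodes and 4.12 (0.849 to 12.0, 3 UMIs) in the LBPXRS ones, above 2.77 and 0.424 in kept cells. Pitx1 was 6.76 (5 UMIs) and 5.49 (1.50 to 14.1, 4 UMIs), against 6.68 and 1.50 in kept cells. What these barcodes are was not tested.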

How the results depend on the processing

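Of the results that answer a comparison, 16 values under an alternative kept their reading and 8 moved. Among the 16, 2 are the count of cells with both Pitx1 and Kdr, which is 0 over all LB cells and could not change with the clustering. The count of members at least 4-fold lower (4) changed in some settings. TMM scaling gave 3 of 3 passing (197 of 7641 genes), a minimum of 1 CPM gave 5 of 9, and the naive-like LB cells alone, an alternative added later, gave 0 (107 of 7280 genes), since no member then reached 10 CPM. In that last setting the log2 ratio turned to 1.24 for Pitx1, 0.74 for Msx2, 0.28 for Tbx20 and 0.51 for Kdr. For Tbx20, with 15 UMIs in LBPXRS and 1 in naive-like cells, the interval of the plain ratio (0.719 to 197) includes 1, so its direction is open. Over all genes, 357 of 13254 were lower at a minimum of 1 CPM, against 221 of 7661, and TMM moved the median of all genes to -0.01. For single members 52 values kept their reading, 14 moved and 4 turned. A pseudocount of 0.1 made the Hand1 log2 ratio -9.72. The share of LB cells with Hand1 (13.9% at 5000 UMIs) was 9.85% at 2500 UMIs, 18.4% at 10000 and 22.9% unthinned, so it moves with depth. The Hand1 and Foxf1 correlation (0.54) was 0.33 in thinned cells and 0.44 in cluster 2 alone, and the share of Hand1 cells with Foxf1 (26.4%) was 13.3% in thinned cells. The share of Hand1 UMIs in the mesoderm-like cluster (80.4%) was 61.2% at Leiden resolution 1, where that cluster had 179 cells. No paired analysis was possible because there is 1 library per condition. Members with few UMIs, such as Gata5, Tbx20 and Kdr, are limited by depth.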

Other observations

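Genes beside the members in GENCODE M21 were looked at after the values were seen. Fendrr, a long noncoding RNA gene 1275 bases from Foxf1 and is known for a role in lateral mesoderm, had 23 UMIs in 19 LB cells and 0 in LBPXRS, with r = 0.32 to Foxf1 over LB cells. Hand2os1, which overlaps Hand2 on the other strand, had 48 UMIs in LB and 7 in LBPXRS (r = 0.53 to Hand2), and Gm34030, 7058 bases away, had 21 and 0 (r = 0.59). Gm47071, which overlaps Pitx1 on the other strand, had 8 and 2 UMIs (r = 0.31 to Pitx1). Ppic, the nearest gene to Prdm6 on 1 side at 45467 bases and the gene most like it over LB cells (r = 0.61), was 69.8 CPM in LB and 39.7 in LBPXRS, while Prdm6 was 10.1 and 0.0386. The protein-coding neighbours Mthfsd of Foxf1 and Sap30l of Hand1 had r of 0.17 and 0.15.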
